A study of Homo sapiens with 12 samples.

Results

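The MYC, MAX and MXD network was followed in HL60 cells, an established human acute myeloid leukemia line of promyelocyte-like cells that lacks the PML-RARA fusion. The network was taken as 10 named genes: the activators MYC, MYCN and MYCL, their partner MAX, the antagonists MXD1, MXD3, MXD4, MXI1 and MNT, and the MAX-like protein MLX. All 10 were found by symbol in the count table of 59251 genes, and 8 of them had enough reads to be tested among 13318 genes. Cells of this single line were left non-treated or received a drug for 48 h: all-trans retinoic acid (ATRA) at 1 µM, palbociclib, an inhibitor of CDK4/6 (CDK4/6i), at 1 µM, or the pair at those doses (CDK4/6i+ATRA). There were 12 RNA-Seq libraries, 3 in each group and labelled as biological replicates. The labels name no genetic change in any group.

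MYC, MYCN and MYCL are transcription factors that bind DNA only as pairs with MAX, at E-box sites, and activate genes for ribosome production, nucleotide synthesis and cell growth. The MXD proteins, MXI1 and MNT pair with the same MAX, bind the same sites and bring in SIN3 and histone deacetylases, which repress those genes. MLX is a relative of MAX that pairs with MXD1, MXD4 and MNT and with the glucose-sensing factors MLXIP and MLXIPL. HL60 cells are known to carry extra copies of MYC, and a fall of MYC with a rise of MXD1 has long been linked to myeloid differentiation. RNA-Seq measures the transcripts only, and the pairs formed by the proteins were not measured.

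Counts per library ranged from 12230923 to 18679544, lowest in the CDK4/6i+ATRA group. Levels are given as CPM, counts scaled to a common library total, after the TMM scaling of edgeR, whose factors were 0.840 to 0.893 in CDK4/6i+ATRA libraries and 1.03 to 1.07 in all others. The 10 most abundant genes took 6.34% to 11.1% of the counts of a library. Of 8 listed promyelocyte markers, 5 were detected, and MPO, a granule enzyme, stood at a mean of 6517 CPM in non-treated, 293 in ATRA-treated, 3469 in CDK4/6i-treated and 28.0 in CDK4/6i+ATRA-treated cells. CTSG, a granule protease, also fell with CDK4/6i+ATRA, from a mean of 13.96 to 0.638 CPM, whereas the myeloid transcription factors SPI1 and CEBPE rose, from 302 to 855 and from 170 to 285 CPM, and the surface marker CD33 stood at 93.9 and 99.8 CPM (not called). ELANE, PRTN3 and AZU1 were listed at 0 in all libraries, and each of these genes is listed on 2 contigs of the genome. Of 12 markers of other cell types (lymphoid, erythroid, endothelial, epithelial, fibroblast and liver), 3 to 5 exceeded 3 counts in a group, and their summed level was 15.2 to 34.5 CPM, most of it PECAM1. As these are bulk samples, fewer cells expressing a gene and less RNA per cell cannot be told apart.

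Comparisons were made with the quasi-likelihood F test of edgeR on a model of the 4 groups, with p-values adjusted over all genes tested and called below 0.05. With ATRA, all 8 tested network genes changed, 5 higher and 3 lower, where 67.6% of all tested genes changed (32.1% higher and 35.5% lower). With CDK4/6i, 8 of 8 changed, 6 higher and 2 lower, against 56.2% of all genes (28.3% higher and 27.9% lower). Under CDK4/6i+ATRA compared to no treatment, 8 of 8 changed, 4 in each direction, against 81.7% of all genes (41% higher and 40.7% lower). CDK4/6i+ATRA differed from CDK4/6i alone in 7 of 8, 3 higher and 4 lower, against 78.6% of all genes (39.1% higher and 39.5% lower). It differed from ATRA alone in 7 of 8, 4 higher and 3 lower, against 69.8% of all genes (36.9% higher and 32.8% lower). These drugs moved most of the transcriptome, so a count of changed members says little by itself, and the levels of each gene are described in turn.

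**Figure D1:**
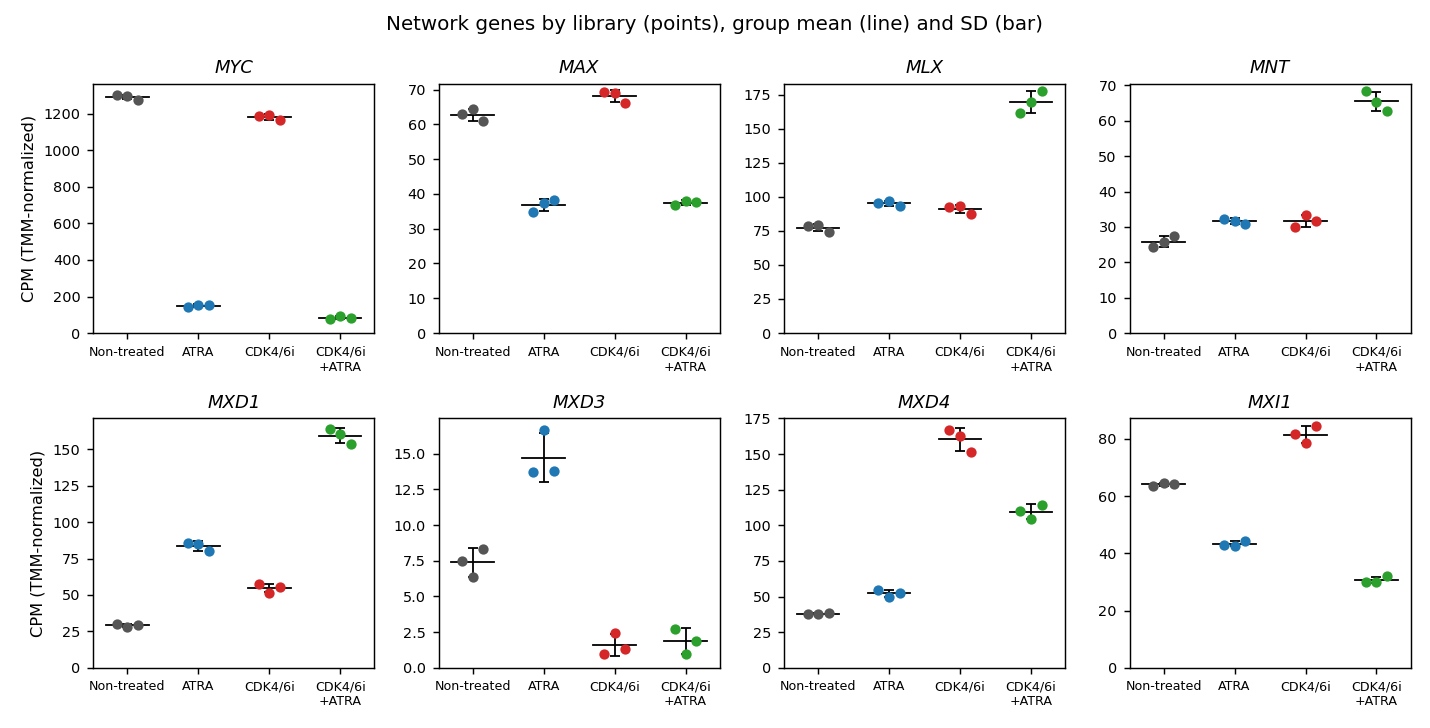
Levels of the 8 tested network genes in TMM-normalized CPM (linear y axes from 0, one panel per gene) in the 4 groups (x axis). Points are the 3 libraries of each group, lines the means and bars the SD. MYC lies near 1292 CPM in non-treated and 84.4 CPM in CDK4/6i+ATRA-treated cells, MXD1 rises from 29.2 to 159.5 CPM, and MXD4 is highest with CDK4/6i alone, at 160.3 CPM.

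MYC (chromosome 8, 127735434 to 127742951 in hg38, plus strand, 3 exons), the activator of the network in these cells, fell steeply with ATRA, slightly with CDK4/6i, and furthest with CDK4/6i+ATRA. The non-treated libraries held 1301, 1297 and 1278 CPM, and the CDK4/6i libraries held 1190.1, 1193 and 1166 CPM. The ATRA libraries held 141, 155 and 156 CPM, and the CDK4/6i+ATRA libraries held 77.5, 91.8 and 84.0 CPM. The 4 groups did not overlap, and the fall with CDK4/6i alone was small beside the others. In log2 fold change against non-treated cells, MYC fell by 3.10 with ATRA (standard error 0.0461, adjusted p = 9.4e-46 from edgeR) and by 0.13 with CDK4/6i (standard error 0.0411, adjusted p = 0.0070 from edgeR). With CDK4/6i+ATRA it fell by 3.94 (standard error 0.0501, adjusted p = 3.7e-49 from edgeR), which is a level 15.3-fold lower. The log2 difference of CDK4/6i+ATRA from ATRA alone was -0.83 (standard error 0.0508, adjusted p = 3.9e-20 from edgeR).

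MYCN and MYCL, the other activators of the family, stood far below MYC. MYCN (chromosome 2, 15940550 to 15947004, plus strand) had 0 counts in all 12 libraries. MYCL (chromosome 1, 39895428 to 39901917, minus strand) had 0 counts in each non-treated library, 3, 2 and 3 with ATRA, 2, 2 and 1 with CDK4/6i, and 20, 4 and 13 with CDK4/6i+ATRA. The CDK4/6i+ATRA libraries thus held the most MYCL reads but spread widely among themselves. Their mean of 1.09 CPM ± 0.738 (SD, n = 3) was at least 6.07-fold higher than the floor of 0.179 CPM that 3 counts per non-treated library would give. Without CDK4/6i+ATRA replicate 1, which holds the most reads, the mean was 0.715 CPM and this bound at least 3.99-fold. MYCL did not pass the expression filter and was not among the 8 genes tested. In the fit with no filter it was called for CDK4/6i+ATRA compared to no treatment (adjusted p = 1.2e-08 from edgeR) and for ATRA (adjusted p = 0.015 from edgeR) but not for CDK4/6i (adjusted p = 0.085 from edgeR), and its fitted fold changes rest on a group at 0 and are not given. The mean with ATRA, 0.156 CPM, lay below the floor of 3 counts per non-treated library, so no fold is given for it. Such floors cover counting error only, since no molecular identifiers were reported.

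MAX (chromosome 14, 65006101 to 65102695, minus strand), the partner that every MYC, MXD and MNT protein shares, followed ATRA and not the addition of CDK4/6i. Its levels were 62.9, 64.5 and 61.0 CPM in non-treated, 34.9, 37.3 and 38.3 in ATRA-treated, 69.4, 69.0 and 66.2 in CDK4/6i-treated and 36.8, 38.0 and 37.8 in CDK4/6i+ATRA-treated libraries. The ATRA and CDK4/6i+ATRA libraries overlapped, and both groups lay below all others. MAX fell by 0.77 with ATRA (log2 fold change, standard error 0.0546, adjusted p = 1.5e-17 from edgeR) and by 0.74 with CDK4/6i+ATRA (standard error 0.0582, adjusted p = 2.3e-16 from edgeR). The difference between CDK4/6i+ATRA and ATRA alone was 0.03 with a 95% interval of -0.10 to 0.15 and was not called (adjusted p = 0.73 from edgeR). Scaled by library size alone, that difference was -0.28 and called (adjusted p = 1.1e-04 from edgeR). The rise with CDK4/6i was 0.12 (adjusted p = 0.039 from edgeR), and it missed the threshold without non-treated replicate 1 or 3 or CDK4/6i replicate 1 or 2, with a log2 fold change of 0.12, 0.10, 0.10 and 0.11.

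MXD1 (chromosome 2, 69915109 to 69942945, plus strand), the antagonist best known for its rise in differentiating myeloid cells, rose with each drug and most with both. It stood at 30.2, 27.9 and 29.6 CPM in non-treated libraries, at 57.4, 51.7 and 55.6 with CDK4/6i, at 86.0, 84.9 and 80.1 with ATRA, and at 164, 160.4 and 154 with CDK4/6i+ATRA. No groups overlapped, in the order non-treated, CDK4/6i, ATRA and CDK4/6i+ATRA. The log2 fold change was 1.52 with ATRA (standard error 0.0543), 0.91 with CDK4/6i (standard error 0.0568) and 2.45 with CDK4/6i+ATRA (standard error 0.0529), the last 5.45-fold higher, and all were called (highest adjusted p = 2.8e-19 from edgeR). The product of the single-drug folds gives 157 CPM for the combined treatment, the sum of the single-drug differences gives 109 CPM, and the observed mean was 159.5 CPM. ASPRV1, a gene on the opposite strand that shares 1040 exon bases with MXD1, held 691 counts over all libraries against 14128 for MXD1.

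MXD4 (chromosome 4, 2247432 to 2262109, minus strand), an antagonist linked to resting and differentiated cells, was the network gene that CDK4/6i raised most. Its libraries held 37.6, 37.8 and 38.4 CPM without treatment, 54.7, 49.7 and 52.4 with ATRA, 167, 163 and 151 with CDK4/6i, and 110.0, 104 and 114 with CDK4/6i+ATRA. The combined treatment thus lay between the single drugs, and the groups did not overlap. MXD4 rose by a log2 fold change of 2.08 with CDK4/6i (standard error 0.0498, adjusted p = 1.8e-36 from edgeR), 4.23-fold higher, and by 0.46 with ATRA (standard error 0.0556, adjusted p = 3.2e-10 from edgeR). Against CDK4/6i alone, CDK4/6i+ATRA was lower by a log2 difference of -0.55 (standard error 0.0456, adjusted p = 2.0e-15 from edgeR).

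MXD3 (chromosome 5, 177305499 to 177312752, minus strand), the MXD protein expressed in dividing S-phase cells, moved opposite to MXD4 with CDK4/6i. It was the lowest of the 8 tested genes in CPM, with 7.51, 6.33 and 8.34 CPM in non-treated, 13.7, 16.7 and 13.8 in ATRA-treated, 0.985, 2.44 and 1.29 in CDK4/6i-treated and 2.75, 0.981 and 1.90 in CDK4/6i+ATRA-treated libraries. ATRA alone gave the highest level, and the groups with CDK4/6i overlapped each other below all other libraries. The log2 fold change was 0.99 with ATRA (standard error 0.148, adjusted p = 7.5e-08 from edgeR), and MXD3 fell by 2.26 with CDK4/6i (standard error 0.215, adjusted p = 5.8e-13 from edgeR) and by 1.98 with CDK4/6i+ATRA (standard error 0.231, adjusted p = 7.9e-11 from edgeR). Between CDK4/6i+ATRA and CDK4/6i the difference was 0.28, with a 95% interval of -0.34 to 0.90, and it was not called (adjusted p = 0.41 from edgeR). Without CDK4/6i replicate 2 it was 0.72 (adjusted p = 0.0489 from edgeR), and without CDK4/6i+ATRA replicate 1 it was -0.08 (adjusted p = 0.84 from edgeR). MXD3 shares 721 exon bases with PRELID1 on the opposite strand, which had 23500 counts against 1276, so its level is uncertain if reads were counted without strand. PRELID1 itself stood at means of 151, 114, 136 and 83.3 CPM in non-treated, ATRA-, CDK4/6i- and CDK4/6i+ATRA-treated cells, and its part in the MXD3 values was not tested.

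MXI1 (chromosome 10, 110207605 to 110287365, plus strand), the MXD2 protein, rose with CDK4/6i but fell with ATRA. Its levels were 63.6, 64.5 and 64.1 CPM in non-treated, 81.6, 78.5 and 84.4 in CDK4/6i-treated, 43.0, 42.7 and 44.4 in ATRA-treated and 30.2, 29.95 and 32.1 in CDK4/6i+ATRA-treated libraries. All 4 groups were separate, with CDK4/6i+ATRA the lowest although CDK4/6i alone was the highest. The log2 fold change was 0.35 with CDK4/6i (standard error 0.0486, adjusted p = 2.6e-08 from edgeR), and MXI1 fell by 0.56 with ATRA (standard error 0.0523, adjusted p = 1.4e-13 from edgeR) and by 1.06 with CDK4/6i+ATRA (standard error 0.0590, adjusted p = 5.6e-22 from edgeR). The difference of CDK4/6i+ATRA from CDK4/6i alone was -1.41 (standard error 0.0574, adjusted p = 2.3e-27 from edgeR).

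MNT (chromosome 17, 2384073 to 2401060, minus strand), the broadly expressed antagonist of MYC, changed little with either drug and more with both. Non-treated libraries held 24.3, 25.7 and 27.4 CPM, ATRA libraries 32.4, 31.8 and 30.7, CDK4/6i libraries 29.97, 33.4 and 31.5, and CDK4/6i+ATRA libraries 68.3, 65.3 and 62.7. The single-drug groups overlapped each other and lay above the non-treated libraries. The log2 fold change was 0.29 with each drug (standard error 0.0677 and 0.0675, adjusted p = 1.7e-04 for ATRA and 2.2e-04 for CDK4/6i from edgeR) and 1.34 with CDK4/6i+ATRA (standard error 0.0649, adjusted p = 1.8e-24 from edgeR), 2.53-fold higher.

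MLX (chromosome 17, 42567100 to 42573203, plus strand), the MAX-like partner, also rose slightly with either drug and more with both. It stood at 78.4, 79.6 and 74.3 CPM in non-treated, 95.5, 97.1 and 93.3 in ATRA-treated, 92.8, 93.1 and 87.7 in CDK4/6i-treated and 162, 169.8 and 178 in CDK4/6i+ATRA-treated libraries. The single-drug groups lay side by side above the non-treated libraries and were not tested against each other. The log2 fold change was 0.30 with ATRA (standard error 0.0454), 0.24 with CDK4/6i (standard error 0.0455) and 1.13 with CDK4/6i+ATRA (standard error 0.0447), the last 2.20-fold higher, and all were called (highest adjusted p = 1.4e-05 from edgeR). PSMC3IP, on the opposite strand, shares 775 exon bases with MLX and held 793 counts in all against 19430 for MLX.

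**Figure D2:**
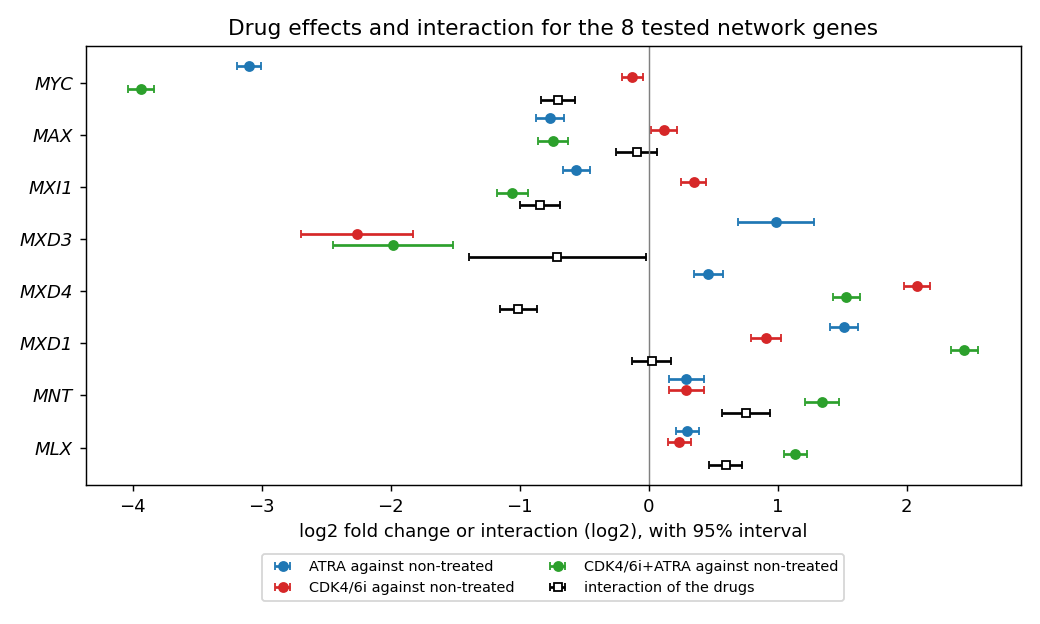
Log2 fold changes of the 8 tested network genes against non-treated cells for ATRA (blue), CDK4/6i (red) and their combination (green), and the interaction of the drugs (open squares), with 95% intervals from edgeR on the x axis and genes on the y axis. The intervals of the interaction of MAX and MXD1 include 0, those of MYC, MXI1 and MXD4 lie below 0 and those of MNT and MLX above it. The interval of MXD3 also lies below 0, though its adjusted p of 0.079 misses the threshold.

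Whether the drugs together did more than the sum of their log2 effects was tested as an interaction. It was called for 5 of 8 genes, 2 higher and 3 lower than additive, where 51.4% of all tested genes were called (24.5% higher and 27% lower). The interaction on the log2 scale was -1.01 for MXD4 (standard error 0.0719), -0.84 for MXI1 (standard error 0.0785) and -0.71 for MYC (standard error 0.0654). It was 0.76 for MNT (standard error 0.0925) and 0.60 for MLX (standard error 0.0630), and the highest adjusted p of these 5 was 1.1e-09 from edgeR. In CPM, MNT and MLX with both drugs stood at 65.4 and 169.8, where the product of the single-drug folds gives 38.8 and 112. MYC stood at 84.4 CPM, below the 138 CPM from the product of folds but above the 41.3 CPM from the sum of the single-drug differences, so the sign of its departure depends on the scale. The interaction was not called for MXD1 (0.02, 95% interval -0.13 to 0.17, adjusted p = 0.84 from edgeR), for MAX (-0.10, 95% interval -0.26 to 0.07, adjusted p = 0.34 from edgeR) or for MXD3 (-0.71, 95% interval -1.39 to -0.02, adjusted p = 0.079 from edgeR). The interaction of MXD3 passed the threshold without non-treated replicate 3 (-0.81), CDK4/6i replicate 1 (-0.97) or CDK4/6i+ATRA replicate 1 (-1.07), and with no filter (-0.79, adjusted p = 0.032 from edgeR). It shrank to -0.27 without CDK4/6i replicate 2 (adjusted p = 0.59 from edgeR) and to -0.41 without CDK4/6i+ATRA replicate 2 (adjusted p = 0.34 from edgeR), so its size rests on single libraries. Scaled by library size alone, all 8 were called, 2 higher and 6 lower, those of MNT and MLX at 0.44 and 0.28, and the median interaction of all genes moved from -0.02 to -0.34.

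The balance of the listed partners that compete for MAX was described by RPKM, a read count scaled by exon length and by library size, over MYC, MYCN, MYCL, MXD1, MXD3, MXD4, MXI1 and MNT. MGA, a further MAX partner, was not counted here. It stood at 120 CPM in non-treated and 61.3 CPM in CDK4/6i+ATRA-treated cells. MYC made up 88.5% ± 0.264 (SD, n = 3) of the summed RPKM in non-treated cells, 77.4% ± 0.262 with CDK4/6i, 40.7% ± 1.62 with ATRA and 20.4% ± 1.77 with CDK4/6i+ATRA. The antagonists MXD1, MXD3, MXD4, MXI1 and MNT together made up 11.5% ± 0.264, 22.6% ± 0.261, 59.2% ± 1.62 and 79.3% ± 1.61 in the same order. Thus MYC led the antagonists together in non-treated and CDK4/6i-treated cells, and the order was reversed under ATRA and under CDK4/6i+ATRA, in every library. These shares were not tested, and the shares of transcripts do not give the shares of MAX that each protein holds.

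**Figure D3:**
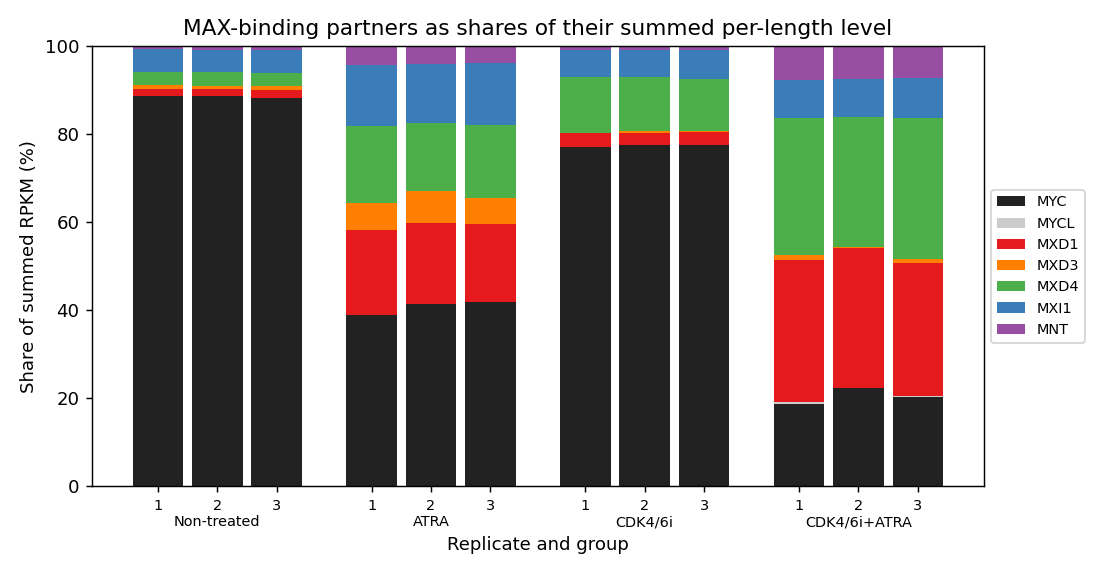
Stacked bars give each listed MAX-binding partner (MGA not included) as a percent of the summed RPKM of those listed (y axis) in each of the 12 libraries (x axis, replicate and group). MYC falls from 88.5% of the bar in non-treated to 20.4% in CDK4/6i+ATRA-treated cells, where MXD1 and MXD4 take 31.4% and 30.9%. MYCN was at 0 and MYCL is too small to see in most bars.

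The sums behind these shares differed between groups as well. The summed RPKM of all listed partners was 323 in non-treated, 338 in CDK4/6i-treated, 81.8 in ATRA-treated and 91.5 in CDK4/6i+ATRA-treated cells. The summed RPKM of the antagonists was 37.1 ± 0.642 (SD, n = 3), 76.4 ± 1.70, 48.5 ± 0.716 and 72.6 ± 1.59 in that order. CDK4/6i alone and CDK4/6i+ATRA therefore gave antagonist sums close to each other, with 74.8 to 78.2 and 70.8 to 74.0 RPKM per library, while their MYC levels were 262 and 18.7 RPKM.

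The leading antagonist changed from group to group. By mean RPKM, MXI1 led in non-treated cells (16.7), MXD4 with CDK4/6i (41.4), MXD1 with ATRA (15.1, next to MXD4 at 13.5), and MXD1 and MXD4 together with CDK4/6i+ATRA (28.7 and 28.3). Without division by length, MXD1 stood above MXD4 with CDK4/6i+ATRA, at 35.2% and 24.2% of the listed partners. The ratio of MYC to MXD1 RPKM was 54.3 ± 2.36 (SD, n = 3) in non-treated, 26.5 ± 1.57 in CDK4/6i-treated, 2.21 ± 0.187 in ATRA-treated and 0.651 ± 0.0636 in CDK4/6i+ATRA-treated cells. MXD1 thus exceeded MYC only with both drugs, at a ratio of 0.580 to 0.703 in the 3 libraries. The ratio of MYC to MAX RPKM fell less, from 14.98 ± 0.313 to 1.64 ± 0.116 between non-treated and CDK4/6i+ATRA-treated cells, since MAX fell too.

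The promoters were searched for the E-box letters CACGTG, the site that MYC and MXD pairs with MAX are known to bind, which read the same on both strands. RefSeq promoter windows (GRCh38.p14) ran from 250 bases before to 50 bases after the start site. Windows of 9 of the 10 genes, matched by symbol in 12 records, were searched. MYC was left out of this search, so its promoter was not tested for the letters. The letters were found for MXD4, MNT and MLX, and in 7.256% of all 35116 promoter windows, or 12.83% of the 9788 tested genes with one. These 3 genes all rose with CDK4/6i+ATRA, as did 41% of all tested genes, and a link of the letters to the rise was not tested. The stretches around the letters are shown on the strand of each gene, with the E-box in capitals.
MXD4, chr4:2262312-2262359, minus strand: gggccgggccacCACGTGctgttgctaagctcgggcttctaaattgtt
MNT, chr17:2401218-2401283, minus strand: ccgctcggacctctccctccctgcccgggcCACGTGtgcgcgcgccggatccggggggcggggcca
MLX, chr17:42567020-42567085, plus strand: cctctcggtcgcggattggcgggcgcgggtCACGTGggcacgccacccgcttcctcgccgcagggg
The E-box began 238 bases before the start site of MXD4, 193 before that of MNT and 50 before that of MLX. MXD1 also rose, and its window held no such letters. A match of letters is not a bound site, and binding was not measured in these libraries.

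The genes around the network were then followed in lists compiled by hand, with earlier results of these data known. The shares of all tested genes are given beside them as a background that was not matched for expression level. The lists were not tested as sets. Of 49 listed targets that MYC is known to induce, 47 were tested. With ATRA, 47 of 47 fell, where 35.5% of all tested genes did, and the median log2 fold change was -1.17 against -0.03 for all tested genes. With CDK4/6i, 38 fell and 4 rose (27.9% and 28.3% of all genes), with a median of -0.33 against 0.02. With CDK4/6i+ATRA, 46 fell and 1 rose (40.7% and 41% of all genes), with a median of -2.17 against 0.02. The interaction was called below 0 for 36 and above 0 for 4 (27% and 24.5% of all genes), with a median of -0.64 against -0.02, so in most listed targets the combined fall exceeded the sum of the single log2 effects.

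CAD, CDC25A and PAICS had the largest falls of the list with CDK4/6i+ATRA at a mean of at least 5 CPM. CAD, an enzyme of pyrimidine synthesis, stood at 339 ± 18.1 CPM (SD, n = 3) in non-treated, 102 ± 4.52 in ATRA-treated, 248 ± 6.42 in CDK4/6i-treated and 18.7 ± 0.857 in CDK4/6i+ATRA-treated cells. PAICS, an enzyme of purine synthesis, had log2 fold changes of -4.12 with CDK4/6i+ATRA (standard error 0.0482) and -1.42 with ATRA (standard error 0.0376). CDC25A, a phosphatase that drives entry into S phase, fell by 5.43 (standard error 0.101), and unlike the others it fell more with CDK4/6i (-1.86) than with ATRA (-0.88). All of these falls were called (highest adjusted p = 1.4e-14 from edgeR). CCND2, IMPDH2, PPAN and RIOX2 were the 4 that rose with CDK4/6i, with log2 fold changes of 0.45, 0.20, 0.42 and 0.31, and PPAN, a ribosome assembly factor, was the 1 that rose with CDK4/6i+ATRA, by 0.91. These were named after their values were seen.

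Of 14 listed genes that MYC is known to repress, 11 were tested. With ATRA 10 were higher and 1 lower, where 32.1% of all tested genes were higher and 35.5% lower, with a median log2 fold change of 0.73 (-0.03 for all genes). With CDK4/6i 7 were higher and 4 lower (28.3% and 27.9% of all genes), with a median of 0.26 (0.02 for all genes). With CDK4/6i+ATRA 8 were higher and 3 lower (41% and 40.7% of all genes), with a median of 1.68 (0.02 for all genes). CDKN2B, the CDK4/6 inhibitor p15, stood at 0.421, 0.376 and 0.563 CPM in non-treated, 4.006, 3.56 and 3.15 in ATRA-treated, 1.09, 1.59 and 2.22 in CDK4/6i-treated and 55.5, 53.3 and 51.0 in CDK4/6i+ATRA-treated libraries. The interaction for CDKN2B was 2.10 (standard error 0.431, adjusted p = 5.0e-05 from edgeR). CDKN1A, the CDK inhibitor p21, reached 20.9 CPM ± 2.69 (SD, n = 3) with CDK4/6i+ATRA, 6.87 ± 0.554 with ATRA and 0.755 ± 0.0665 with CDK4/6i, from 2, 8 and 1 counts in the non-treated libraries. The interaction for CDKN1A was -0.15 (standard error 0.450) and was not called (adjusted p = 0.81 from edgeR). CEBPA, a myeloid transcription factor, went the other way, from 377 ± 9.35 CPM in non-treated to 76.4 ± 0.733 with CDK4/6i+ATRA (log2 fold change -2.30, standard error 0.0414, adjusted p = 8.3e-43 from edgeR).

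**Figure D4:**
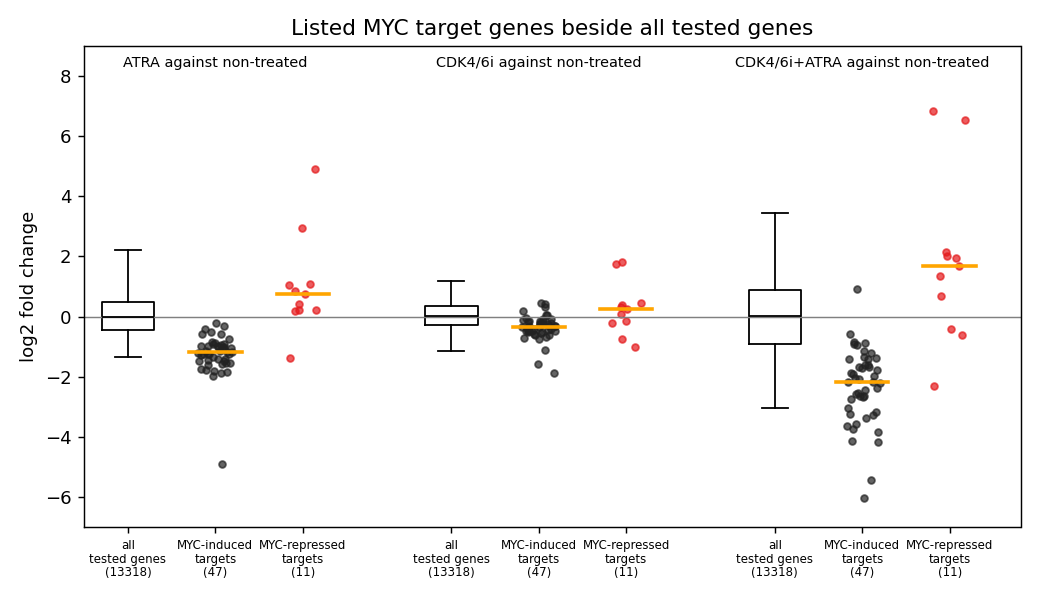
Log2 fold changes (y axis) with each treatment against non-treated cells for all 13318 tested genes (boxes, quartiles with whiskers from percentile 5 to 95), for 47 MYC-induced targets (black points) and for 11 MYC-repressed targets (red points), with the median of each list in orange. The median of the induced targets is -1.17 for ATRA, -0.33 for CDK4/6i and -2.17 for the combination, and that of the repressed targets is 0.73, 0.26 and 1.68.

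MLX has partners and targets of its own. MLXIPL, the glucose-sensing factor also called ChREBP, had 0 counts in all non-treated and CDK4/6i libraries, 42, 70 and 71 with ATRA and 155, 150 and 142 with CDK4/6i+ATRA. Its mean of 13.1 CPM ± 1.26 (SD, n = 3) with CDK4/6i+ATRA was at least 73.2-fold higher than the floor of 3 counts per non-treated library, and its 3.53 CPM ± 0.820 with ATRA at least 19.7-fold higher. It was named after its values were seen. MLXIP, the other such partner, fell by a log2 fold change of 0.48 with CDK4/6i+ATRA (adjusted p = 2.1e-10 from edgeR).

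Of 6 listed targets of these MLX pairs, 5 were tested, and 4 rose and 1 (HK2, hexokinase 2) fell with CDK4/6i+ATRA, where 41% of all tested genes rose and 40.7% fell. The median log2 fold change was 1.31 against 0.02 for all tested genes, and TXNIP is also in the repressed list. ARRDC4, an arrestin-domain protein related to TXNIP, stood at 9.45 ± 1.06 CPM (SD, n = 3) in non-treated, 9.79 ± 0.944 in ATRA-treated, 13.0 ± 0.201 in CDK4/6i-treated and 67.8 ± 3.43 in CDK4/6i+ATRA-treated cells, with an interaction of 2.34 (standard error 0.134, adjusted p = 2.0e-20 from edgeR). KLF10, a zinc-finger repressor, rose with ATRA (1.25), fell with CDK4/6i (-0.95) and rose most with both (log2 fold change 2.48, standard error 0.0917, adjusted p = 2.3e-29 from edgeR). PFKFB3, a regulator of glycolysis, rose by 1.31 with both (standard error 0.0544, adjusted p = 3.8e-27 from edgeR). The interaction was 2.18 for KLF10 (adjusted p = 1.5e-17 from edgeR) but -0.24 for PFKFB3 (adjusted p = 0.0049 from edgeR).

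Transcripts of the complex through which the antagonists repress moved in both directions. Of 10 tested SIN3 complex genes, 4 rose and 6 fell with CDK4/6i+ATRA (median log2 fold change -0.96, and 0.02 for all genes), where 41% of all tested genes rose and 40.7% fell, so the share that rose is that of the background. With CDK4/6i alone 0 rose and 8 fell, where 28.3% of all genes rose and 27.9% fell. SIN3B, a scaffold of the complex, rose by 1.32 with CDK4/6i+ATRA (standard error 0.0641), whereas the log2 fold changes of the subunits RBBP7 and SAP30 were -2.13 (standard error 0.0462) and -3.68 (standard error 0.142), with a highest adjusted p of 2.5e-24 from edgeR. Of 12 tested MYC cofactors, 3 rose and 7 fell with CDK4/6i+ATRA, and the 83.3% changed is close to the 81.7% of all tested genes. KAT2A, a histone acetyltransferase, RUVBL1, an ATPase that assembles protein complexes, and WDR5, which helps MYC to bind chromatin, fell by 3.13, 2.56 and 2.51 (highest adjusted p = 2.3e-36 from edgeR).

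Of 12 tested genes that control MYC protein stability, 3 rose and 8 fell with CDK4/6i+ATRA, where 81.7% of all tested genes changed, 41% higher and 40.7% lower. PLK1 and AURKA, mitotic kinases that stabilize MYC proteins, fell by 5.38 and 2.40 with CDK4/6i+ATRA, and SKP2, a ubiquitin ligase subunit, by 3.15 (highest adjusted p = 9.2e-37 from edgeR). With ATRA alone PLK1 and AURKA rose, by log2 fold changes of 0.18 and 0.40. Among 6 other E-box binding or network genes, 2 rose and 3 fell with CDK4/6i+ATRA, against the same shares of all genes. TFAP4, an E-box factor induced by MYC, fell by 5.23 (standard error 0.148) and MGA, a further MAX partner, by 0.97 (standard error 0.0518), while USF1, an E-box factor that does not pair with MAX, rose by 1.12 (standard error 0.0716), with a highest adjusted p of 1.1e-19 from edgeR.

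Genes with the pattern most like that of MYC or MXD1 were sought among 9299 tested genes with a mean of at least 5 CPM, by the root mean square difference of the 4 centred group means of log2 CPM. TNKS1BP1 (0.0679), SPNS3 (0.123) and GPR85 (0.133) lay nearest to MYC. TNKS1BP1 stood at 46.0, 5.42, 46.2 and 3.26 CPM in non-treated, ATRA-, CDK4/6i- and CDK4/6i+ATRA-treated cells. LRP10 (0.0423), FRAT1 (0.0544) and JHY (0.0646) lay nearest to MXD1, and LRP10 stood at 79.6, 246, 151 and 445 CPM in the same order. With 4 group means, many genes can lie this close, and these distances are a description with no test.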

How the data were processed

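RNA-Seq libraries of HL60 cells were made by the authors with a directional kit, trimmed with Trimmomatic 0.33 (per the labels), aligned to hg38 with STAR 2.7.11a under the NCBI RefSeq annotation, and deposited as raw counts per gene with gene lengths. The paper names RSEM as the source of the counts, whereas the deposited table has the layout of featureCounts, and strand use in counting is not given in the sources used here.

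The counts were used as deposited. Genes were filtered with filterByExpr, scaled by TMM and tested with edgeR 4.0.16 (R 4.3.3) in 1 model of the 4 groups with 8 residual degrees of freedom and Benjamini-Hochberg adjustment over 13318 genes. RPKM used the deposited exon lengths. Alternatives were scaling by DESeq2's size factors or by library size alone, no filter or 10 counts in every library, DESeq2 1.42.0, a replicate block, a fit of the compared groups only and leaving out each library. The steps were tested on simulated data.

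The members and lists were chosen with earlier results of these data known. Besides the members, the genes named are up to 3 per list with the largest absolute change with CDK4/6i+ATRA (called, mean of at least 5 CPM), the 3 nearest to MYC and to MXD1, genes overlapping a member, and those said to be named after their values were seen. HK2, TXNIP, MLXIP and the cell markers were named outside these rules. Each library was counted as 1 replicate, as labelled. Libraries of a group differed by more than sampling noise (chi-square per degree of freedom 1.81 to 6.22), which cannot tell biological from technical replicates. Figures used matplotlib.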

Additional observations from a re-analysis of the deposited data

Results flagged for a closer look

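The effect of each drug depended on the other by the edgeR interaction test for 5 of 8 tested network genes, where 51.4% of all tested genes were called, so the count says little about the network. On the log2 scale the interaction was -0.71 for MYC, -1.01 for MXD4 and -0.84 for MXI1, and 0.76 for MNT and 0.60 for MLX. Under the 18 alternative settings run for the interaction, including library size alone and leaving out each library, these 5 kept their sign and their call. MXI1 moved in opposite directions with the single drugs, and MXD4 with both drugs lay between the single-drug levels.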

How the results depend on the processing

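Of 904 member values recomputed under an alternative, 878 kept their direction and their side of the threshold, 6 lost the call, 7 gained one and 13 changed sign, all of the latter among values that were not called at first, and 2 of these 13 also became called, both with library size alone. The 6 lost calls were the rise of MAX with CDK4/6i, with no filter (0.11), with DESeq2 (0.13) and without the 4 libraries named with MAX. The difference of MAX between CDK4/6i+ATRA and ATRA became -0.28 with library size alone (called), -0.068 with no filter, -0.043 with only the groups compared and -0.019 without ATRA replicate 1 (up to 0.050 without ATRA replicate 3), and that of MXD3 between CDK4/6i+ATRA and CDK4/6i became -0.081 without CDK4/6i+ATRA replicate 1 (up to 0.72 without CDK4/6i replicate 2). The interaction of MXD1 became -0.30 with library size alone (called), -0.065 with no filter, -0.00049 with DESeq2's size factors, -0.00044 with DESeq2, and -0.0089, -0.016, -0.025 and -0.00019 without non-treated replicate 1, ATRA replicate 3, CDK4/6i replicate 2 and CDK4/6i+ATRA replicate 1 (up to 0.060 without CDK4/6i replicate 1). With library size alone, 8 members were called for the interaction, and the median of all genes moved to between -0.25 and -0.34 in comparisons with CDK4/6i+ATRA. Of 226 recomputed counts of members or MYC-induced targets, 225 stayed within 1.5 times the first count. Most of the first counts lay at or near the number of genes tested, so they had little room to rise. Leaving out each library gave 5 to 6 members for the interaction and 7 to 9 for the other comparisons, the ninth being MYCL, whose reads with either single drug lie at or under the floor of 3 counts. Replicates with the same number did not deviate together (r between -0.07 and 0.03 over 18 pairs), and with the replicate block 8 members with ATRA, 8 with CDK4/6i, 8 with both, and 5 for the interaction were called. Without division by length, the share of MYC was 78.2% with CDK4/6i and those of MXD1 and MXD4 with both drugs 35.2% and 24.2%. A count of 0 in a library, as for MYCN, allows up to 3 counts at this depth.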
